A study of Mus musculus with 18 samples.

Results

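Long runs of adjoining peaks of N6-methyladenosine (m6A), a methylated RNA base, are described here from antibody enrichment and sequencing of 3T3-L1 cells. A run is a series of 4 or more called peaks of 1 gene in which each peak starts at the base where the previous one ends. Runs of different peak lists were merged into 1 region where they shared at least 1 base. This gave 1122 run regions. A separate merge of all stretches of adjoining or single peaks gave 66594 regions. The runs were chosen from the measured peak positions, so their number, length and presence in a list are descriptions without a test. 3T3-L1 cells are mouse fibroblasts of embryonic origin that become fat cells when induced. The 9 peak lists came from 18 samples, each list from 1 m6A library and its input. A single list each came from unperturbed cells at days -2, 0, 2, 5 and 10 of adipogenesis. The other lists were siCtrl replicates 1 and 2, which are controls, and siFTO replicates 1 and 2, labelled as knockdowns of Fto, an m6A demethylase, in preadipocytes. The lists give no RNA level, so the extent of the knockdown was not checked. The labels give no day for the siRNA samples and number only the second replicate of each. Nothing says that replicates came from separate cultures, so their spread may be technical. The stages have 1 list each and hence no replicate error.

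m6A is written on nascent messenger RNA by a methyltransferase complex, removed by the demethylases Fto and Alkbh5, and read by proteins that alter the splicing, decay and translation of the RNA. It is known to be concentrated near stop codons and in long internal exons, mostly at a short consensus around the methylated adenosine. In antibody-based maps single modified bases are not resolved: RNA fragments are enriched, and a peak marks where enriched fragments pile up. A long run therefore marks a stretch of RNA over which fragments were enriched without a break.

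The genome sequence under the regions was not used here. RefSeq promoter sequences (build GRCm38.p6) cover the first 50 transcribed bases of each gene, and these can be set beside the runs that reach a gene's start. Of 172 such windows that lie wholly inside a run region of the same gene, 12 (6.98%) hold GGACT, the core of the m6A consensus, against 5.76% of the 32817 RefSeq starts. The reverse complement AGTCC, which is not an m6A consensus, was in 7.56% and 4.87%. The windows in runs had a median GC content of 74% against 56% for all starts. The sites below are those whose region held a run in 4 or more lists. They show how the consensus sits near the start of transcripts whose runs reach the first bases, and the capitals mark GGACT. A match describes the letters and is not evidence of a methylated base.
Egln2, chr7:27165679-27165694, minus strand: acaactgtGGACTtgg
Arih1, chr9:59486333-59486353, minus strand: cgcgccatGGACTcggacgag
Junb, chr8:84978704-84978724, minus strand: agcactggGGACTttgagggt
Rnf19b, chr4:129058148-129058168, plus strand: ctctgggaGGACTgccgaggc
Six5, chr7:19094552-19094572, plus strand: ggcgaggaGGACTgggcggag
Sap30l, chr11:57801667-57801686, plus strand: tgccgcggGGACTcggggcg
Egln2, an oxygen-sensing prolyl hydroxylase, and Arih1, a ubiquitin ligase, held runs over these sites' regions in 6 lists. Junb, a transcription factor of the AP-1 family, and Rnf19b, another ubiquitin ligase, did so in 5 lists, and Six5, a homeobox factor, and Sap30l, a deacetylase complex subunit, in 4.

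Every run was 1 continuous enriched stretch that the authors' peak calling had divided into equal pieces. In all 3748 runs the peaks of a run had the same width within 1 base, and the number of peaks equalled the run's length divided by 200 bases and rounded up. The same held for all 38998 stretches of 2 peaks and 7720 stretches of 3. For the 218866 single peaks it holds by definition. No peak was wider than 200 bases, so a stretch of 3 peaks was at most 600 bases long and a run was at least 625. The rule thus selects stretches longer than 600 bases. Just inside it lay 2203 runs of 4 peaks and just outside it the 7720 stretches of 3. Lengths fell on a grid of 25 bases in 96.1% of runs. Because the cuts follow length alone, peaks within a run are not separate sites, and 35.7% of runs crossed from 1 transcript part into another.

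Run regions had a median length of 775 bases, with quartiles of 675 and 1000, and the longest spanned 3550. Of the 1122 regions, 268 (23.9%) exceeded 1000 bases and 17 exceeded 2000. Runs of 4 peaks made up 2203 of the 3748 runs, 792 had 5 peaks and 9 had 18. They held 18224 of the 338246 peaks (5.39%) and lay on 985 of the 12634 gene identifiers with a peak (7.8%). Of the genes with a region, 878 had 1 and 105 had 2 or more.

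The longest regions belonged to Plec, which encodes plectin, a giant linker of the cytoskeleton. Its longest region covered 3550 bases of coding sequence (ENSMUSG00000022565, chr15:76174851-76178400, mm10, minus strand). This region held 18 run peaks in each siCtrl list and 4 in each siFTO list. On days -2, 0, 2, 5 and 10 it held 0, 10, 5, 18 and 14 run peaks. Both siCtrl lists and day 5 thus held it almost unbroken, and the other lists held it in pieces. The neighbouring Plec region (chr15:76178501-76181975), 3475 bases long, was a single stretch in every list except day 2, where gaps split it, with 18, 18, 17 and 17 run peaks in siCtrl 1, siCtrl 2, siFTO 1 and siFTO 2 and 18, 18, 16, 18 and 18 over the stages. The median fold of its peaks stood at the 98.5th percentile of each siCtrl list and at the 72.0th and 78.8th percentiles of the siFTO lists, while 17 or 18 peaks were held in each of these lists. The fold is the authors' enrichment of a peak, and its percentile is its rank among all peaks of the same list.

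The other named regions above 2000 bases lay mostly in coding sequence. Numa1, a nuclear protein that organizes the mitotic spindle, held a region of 2825 bases with 13 and 15 run peaks in siCtrl and none in siFTO. Peaks of siFTO 1 and 2 still covered 2275 and 2200 bases of this region in shorter stretches. Over days -2, 0, 2, 5 and 10 it held 4, 0, 0, 13 and 12, and peaks of days -2, 0 and 2 still covered 2000, 2050 and 1950 of its bases, mostly in shorter stretches. Chst2, a sulfotransferase, held 2754 bases across its 5' untranslated region (UTR) and coding sequence, with 10 run peaks in each siCtrl list, 0 in both siFTO lists and 0, 14, 10, 10 and 14 over the stages. Cic, a transcriptional repressor, held 2725 bases with 7 and 9 run peaks in siCtrl, 0 and 0 in siFTO and 0, 15, 15, 14 and 12 over the stages. Zfp316, a zinc finger gene, held 2525 bases, Fam83h 2475 and Scaf1, an SR-related splicing factor gene, 2375. None of these 3 held a run in siFTO or on day -2. Of the 10 longest regions, 3 lie over more than 1 RefSeq gene. The region of 3125 bases assigned to Gm20388 (chr8:122891826-122894950) lies over Ankrd11 and Gm39273, that of 2575 bases assigned to 6430550D23Rik also lies over Cep250, and that of Cic over Gm45974. The Gm20388 and 6430550D23Rik regions held runs in all 9 lists. Of the 1122 regions, 111 (9.89%) lay over more than 1 RefSeq gene, and which gene's reads made those peaks cannot be told apart. Among the regions described here, those of Cavin2, Klf3, Tnc and Sox4 also lie over another RefSeq gene.

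**Figure D1:**
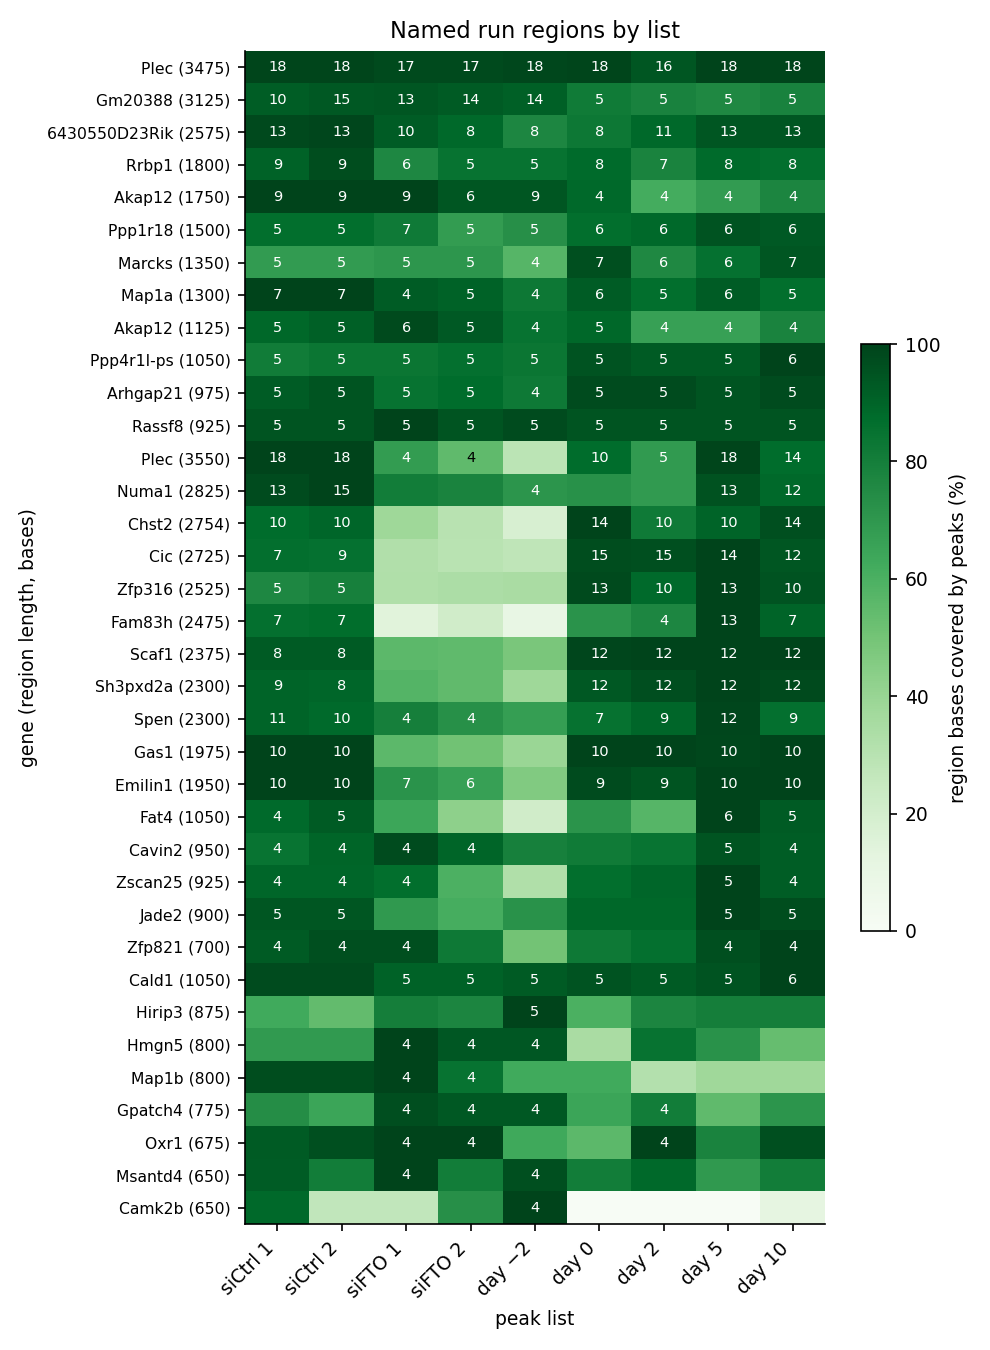
Run regions named by length, by presence in most lists, by the siRNA groups or by stage (rows, with the region length in bases) against the 9 peak lists (columns). Shading gives the percent of region bases covered by any peak, and the printed number counts the peaks in runs, with no number where no run was held. Plec (3475 bases) is dark in every list, while Chst2, Cic and Gas1 are paler in both siFTO lists and on day -2.

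A run in all 9 lists was held by 18 regions (1.60%), and 297 regions (26.5%) held a run in a single list. Among the 9-list regions were Rrbp1, a ribosome-binding protein of the endoplasmic reticulum, and Akap12, a scaffold for protein kinase A, which had 2 such regions. Rrbp1 held 9, 9, 6 and 5 run peaks in siCtrl 1, siCtrl 2, siFTO 1 and siFTO 2 and 5, 8, 7, 8 and 8 over days -2 to 10. The longer Akap12 region (1750 bases) went the other way across the stages, with 9 run peaks on day -2 and 4 on each later day. It held 9 and 9 in siCtrl and 9 and 6 in siFTO. Rassf8 held 5 run peaks in each of the 9 lists, over 875 to 925 bases of its coding sequence, and was the steadiest of the named regions. Ppp1r18, a regulator of protein phosphatase 1, Marcks, a substrate of protein kinase C, Map1a, a microtubule-binding protein, Arhgap21, a GTPase-activating protein, and the pseudogene Ppp4r1l-ps completed the 10 regions named for presence. Of the 18 regions, 9 had coding peaks only and 5 intronic peaks only.

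Most regions without a run in a list still held a peak there, but less often in siFTO and on day -2. Of the 1122 regions, 174 and 198 held no peak in siFTO 1 and 2 and 254 none on day -2. In each other list 12 to 32 held none. The median region was covered over 23.1% of its bases on day -2, 40.7% and 34.6% in siFTO and 80.6% in each siCtrl list. In 767 of the 1122 regions (68.4%) every list held at least 1 peak, against 7300 (11.0%) of all 66594 regions. Run regions are longer than other regions, whose median length was 125 bases, and that length alone raises the share with any peak. Of the 297 regions with a run in a single list, 160 had a peak in all 9.

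Several genes carried more than 1 run region. Rai1, a chromatin-associated regulator, had 5 coding regions within 5575 bases, separated by gaps of 25 to 275 bases, and held runs of them in 1 to 6 lists. The 4 Plec regions lay within 9750 bases with gaps of 25 to 100, so they formed nearly 1 stretch. Soga1 and Bahcc1 also had 4 regions each, but spread over 61682 and 51075 bases. Rreb1, a zinc finger transcription factor, and Golgb1, a large Golgi protein, had 4 coding regions each. The 4 regions of Ahnak, a giant scaffold protein, were labelled intronic in the lists and held runs in 1 or 2 lists. Map1a, Spen and Speg had 3 each. The 11 regions assigned to Gm20388, more than for any other name, lay over 9 different sets of RefSeq genes within 3572500 bases, among them Gse1, Foxc2, Zcchc14, Zfpm1, Zc3h18, Ankrd11 and Rhou.

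Runs were frequent in siCtrl and from day 0 on, and scarce in siFTO and at day -2. In siCtrl 417 and 441 runs were found, and in siFTO 118 and 65. Over days -2, 0, 2, 5 and 10 there were 33, 614, 592, 751 and 717 runs. The share of all peaks that lay in runs was 5.58% and 5.42% for siCtrl, against 1.36% and 0.963% for siFTO. The share was 0.604% on day -2 and between 7.12% (day 2) and 8.53% (day 5) on the later days. Peaks of a run are not independent, so no binomial interval is given. The lists held 26485 to 44529 peaks, and read depth is unknown because no counts are given. With each list limited to its 26485 peaks of highest fold, runs numbered 386 and 370 in siCtrl, 89 and 65 in siFTO, and 33, 566, 517, 617 and 568 over the stages. The order of siCtrl, siFTO and day -2 was therefore the same at equal peak numbers.

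**Figure D2:**
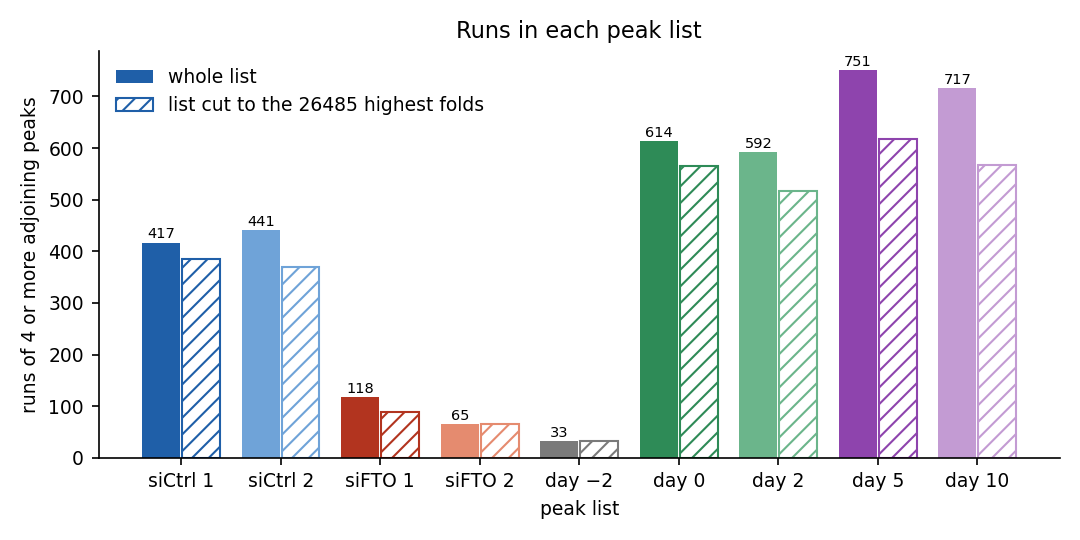
Number of runs of 4 or more adjoining peaks (vertical axis) in each of the 9 peak lists, in the whole list (filled bars, with the number) and in the list cut to its 26485 peaks of highest fold (hatched bars). The siFTO lists (118 and 65) and day -2 (33) stand below the siCtrl lists (417 and 441) and days 0 to 10 (592 to 751).

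The scarcity was not limited to the longest stretches. Stretches longer than 200 bases, which hold 2 peaks or more, made up 22.1% and 22.7% of stretches in siCtrl, 11.9% and 9.78% in siFTO, 6.98% on day -2 and 22.7% to 23.7% on days 0 to 10. For stretches above 600 bases, the runs, the shares were 1.50% and 1.47%, 0.341% and 0.231%, 0.134%, and 1.96% to 2.30%. Above 1000 bases they were 0.267% and 0.247%, 0.0346% and 0.0213%, 0.00814%, and 0.381% to 0.526%. As a ratio, the siFTO and day -2 shares fell further below the other lists with length, while the gap in points shrank. Above 1000 bases these shares rest on few stretches, 12 and 6 in siFTO and 2 on day -2. The median length of a run was alike, between 700 bases (siFTO 1) and 783 (day 5). How far the shorter stretches of whole lists account for the number of runs was not tested.

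**Figure D3:**
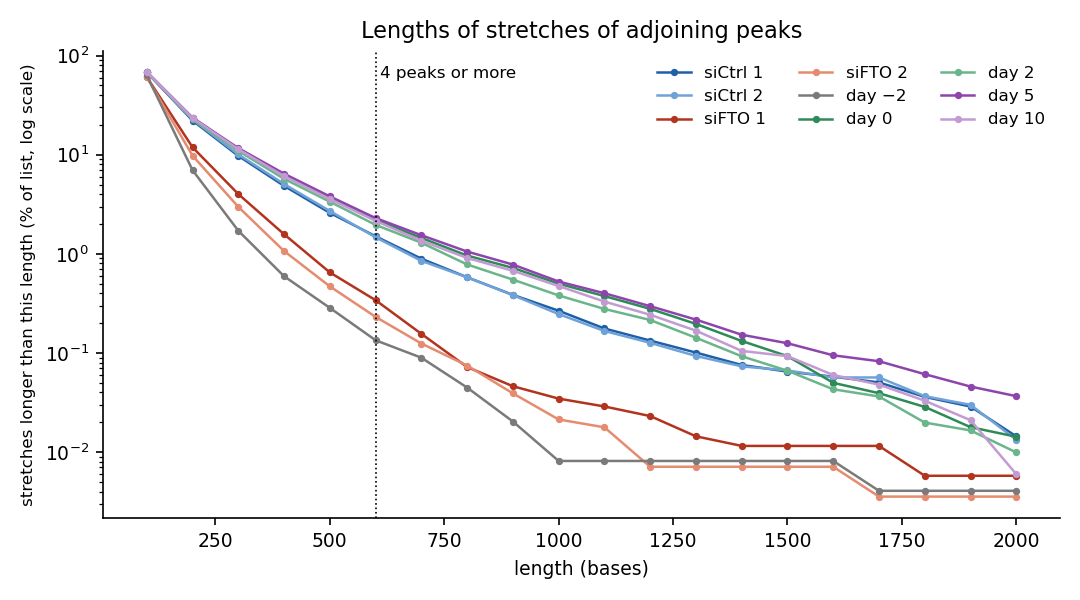
Percent of a list's stretches (vertical axis, log scale) that are longer than a given length in bases (horizontal axis), with 1 line for each of the 9 lists. The dotted line at 600 bases marks where a stretch becomes a run, and there the siFTO lists (0.341% and 0.231%) and day -2 (0.134%) lie below siCtrl (1.50% and 1.47%) and days 0 to 10 (1.96% to 2.30%).

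Runs of siFTO and siCtrl were also compared in regions that the siRNA lists had no part in choosing. Rebuilding the regions from the 5 stage lists gave 987 regions. Of these, 346 and 339 held a run in siCtrl 1 and 2, and 76 and 52 did in siFTO 1 and 2. The means were 342.5 ± 4.95 (SD, n = 2) and 64.0 ± 17.0, and the groups did not overlap. The difference of -278.5 regions had a two-sided exact permutation p of 0.333 (adjusted 0.333), which is the smallest that 2 lists against 2 allow. The siFTO lists held fewer runs in all, 118 and 65 against 417 and 441 in siCtrl. The region count is therefore not separate from those totals. Peaks covered 73.3% and 72.0% of the bases of the stage-defined regions in siCtrl and 39.7% and 35.6% in siFTO. That difference was -35.0 points (exact permutation p = 0.333). Most stage-defined regions kept some peak in siFTO: 742 and 743 held shorter stretches only and 169 and 192 held none. In siCtrl 622 and 618 held shorter stretches only and 19 and 30 held none. Fold, in contrast, was taken over all run peaks of each siRNA list and not within the stage-defined regions. These run peaks were thus chosen by the siRNA lists themselves. Their median fold percentile was 79.0 and 78.3 in siCtrl and 69.7 and 75.5 in siFTO. The difference was -6.10 points (exact permutation p = 0.333). It was -3.21 points without siFTO 1 and -13.9 with only peaks at or above the median fold of their list.

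**Figure D4:**
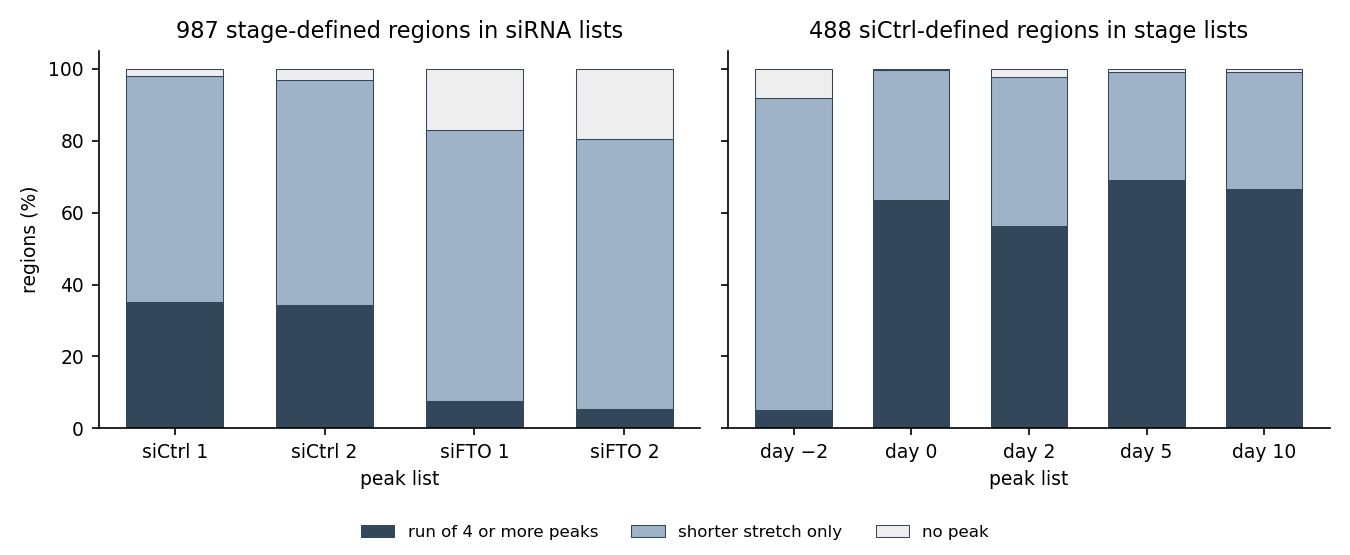
Percent of regions (vertical axis) that hold a run, only shorter stretches, or no peak, in each list. On the left are the 987 regions built from the stage lists as seen in the siRNA lists, and on the right the 488 regions built from the siCtrl lists as seen in the stage lists, where 5.12% hold a run on day -2 and 63.5% on day 0.

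Over all 1122 regions, 293 (26.1%) held a run in each siCtrl list but no siFTO list, 10 held one in each siFTO list but no siCtrl list, and 43 in all 4. These counts use the contrast that also chose the regions. Asked for any peak, 128 regions (11.4%) had one in each siCtrl list but no siFTO list, near the background of 10.2% among all regions, and 2 had the reverse, where the background is 8.76%. The median region of the 293 was 950 bases long and was covered over 93.1% and 93.5% of its bases in the siCtrl lists and over 50% and 46% in the siFTO lists. In siFTO 1, 214 of the 293 regions held 2 or more separate stretches, 67 held 1 and 12 held none. In siFTO 2 these counts were 200, 79 and 14.

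Gas1, a membrane protein that takes part in growth arrest and hedgehog signalling, illustrates this group. Its region of 1975 bases (ENSMUSG00000052957, chr13:60175426-60177400, minus strand) spans the 5' UTR, the coding sequence and the 3' UTR. Both siCtrl lists and the lists of days 0, 2, 5 and 10 held it as 10 run peaks over 1950 to 1975 bases. Peaks covered 1100 and 1000 bases in siFTO and 775 on day -2, with no run. Sh3pxd2a, a scaffold protein of podosomes, held 9 and 8 run peaks in siCtrl and 12 on each of days 0 to 10, and its siFTO lists covered 1325 and 1250 of 2300 bases. Scaf1 held 8 and 8 in siCtrl and 12 on each of these days. The group also took in Chst2 and Cic.

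The 10 regions in the reverse group were closer to complete in siCtrl than their count shows. Cald1, which encodes the actin-binding protein caldesmon, held 5 run peaks in each siFTO list and 5 to 6 in every stage list. Both siCtrl lists covered 1025 of its 1050 bases, but a gap of 25 bases split them into stretches of at most 3 peaks. Map1b, a microtubule-binding protein, was likewise split by 25 bases in both siCtrl lists, and Oxr1, a protein of oxidation resistance, by 50 and 25. Gpatch4 and Hmgn5, a nucleosome-binding protein, held 1 stretch of 3 peaks in each siCtrl list. With gaps of up to 25 bases allowed, the reverse group grew from 10 regions to 20 and the siCtrl group from 293 to 326.

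Across the stages, 367 regions held a run on days 0, 2, 5 and 10 and none on day -2, 58 on days 5 and 10 and no earlier day, 19 at all 5 stages and 4 on day -2 alone. These counts describe the values that chose the regions. Asked for any peak, 241 regions (21.5%) had one on days 0, 2, 5 and 10 and none on day -2, against 16.8% of all regions. For days 5 and 10 without an earlier day the count was 4 (0.357%) against 2.86%, and for day -2 alone 4 (0.357%) against 15.1%. The most frequent combination over all 9 lists, with 170 regions, was a run in both siCtrl lists and on days 0, 2, 5 and 10. The next, with 148, was days 0, 2, 5 and 10 without siCtrl. The 488 regions built from the siCtrl lists alone gave a view that the stage lists had not shaped. Of these, 25 (5.12%), 310 (63.5%), 275, 337 and 325 held a run at days -2, 0, 2, 5 and 10, and peaks covered 41.7%, 87.0%, 83.4%, 90.8% and 88.8% of their bases. Regions built from the siFTO lists were less uneven. Of 128 such regions, 26, 57, 56, 68 and 63 held a run on days -2, 0, 2, 5 and 10, and 67.3% of their bases were covered on day -2. The day -2 list stood nearest to siFTO in its run number, but the labels do not say how the siRNA cells relate to a stage.

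Emilin1, an elastic fibre glycoprotein, shows the stage pattern. Its 1950 coding bases held no run on day -2, 9 run peaks on days 0 and 2 and 10 on days 5 and 10. It held 10 in each siCtrl list and 7 and 6 in siFTO. Spen, a transcriptional repressor, held 0, 7, 9, 12 and 9 over the stages and 11, 10, 4 and 4 in siCtrl 1, siCtrl 2, siFTO 1 and siFTO 2. The regions with runs on days 5 and 10 and no earlier day were shorter, with a median of 725 bases. They included Cavin2, a protein of caveolae, with 5 and 4 run peaks on days 5 and 10. Peaks of days -2, 0 and 2 covered 750, 775 and 800 of its 950 bases without a run. Fat4, an atypical cadherin, held 6 and 5 run peaks on days 5 and 10, Jade2 5 and 5, Zscan25 5 and 4 and Zfp821 4 and 4. All 5 also held runs in both siCtrl lists, Cavin2, Zscan25 and Zfp821 in siFTO 1, and Cavin2 in siFTO 2. They were named by their run peaks over all lists, which favours such regions: 44 of the 58 regions held no run in any siRNA list. On day -2 alone of the stages, runs were held by Hirip3, with 5 run peaks, and by Camk2b, Msantd4 and Hmgn5, with 4 each. Camk2b, a calmodulin-dependent kinase subunit, held its run in an intron over 650 bases, and no peak touched that stretch on days 0, 2 and 5.

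Peaks in runs ranked higher by fold than other peaks of their list. The median fold percentile of run peaks was 77.1 ± 3.02 (SD over 9 lists) against 48.1 ± 1.27 for the remaining peaks, a difference of 28.9 points. It was positive in 9 of 9 lists (two-sided exact sign permutation p = 0.00391, Benjamini-Hochberg adjusted p = 0.00586 over 6 tests). This p is the smallest possible over 9 lists. Runs are long stretches of called enrichment, so fold and the choice of runs may be tied. The lists also share many run regions and are not independent. The p-value is therefore no separate support. In folds, run peaks had medians of 6.28 and 6.28 in siCtrl against 3.34 and 3.38 for other peaks, 6.80 and 8.19 in siFTO against 4.06 and 4.03, and 13.6 to 16.4 over the stages against 5.07 to 5.85. The median percentile stepped up from single peaks (34.2 to 46.6 over the lists) to stretches of 2 (59.8 to 65.01) and of 3 (63.2 to 72.3). It was 67.9 to 76.8 in runs of 4, 71.9 to 81.9 in runs of 5, 60.7 to 83.6 in runs of 6 or 7 and 74.9 to 85.0 in runs of 8 or more. In siFTO 1 and 2 the runs of 6 or 7 stood at 66.2 and 60.7, below the runs of 4 in the same lists (67.9 and 73.7). Single peaks are also narrower, with run peaks at least 156 bases wide and other peaks at a median of 125. Against other peaks of at least 150 bases the difference was 20.9 points, in the same direction.

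Within a run, inner peaks had a higher median fold rank than end peaks. Inner peaks had a median percentile of 80.9 ± 3.41 and the end peaks 70.0 ± 2.96, a difference of 10.9 points with the same sign in 9 of 9 lists. End peaks border on bases without a called peak, so this difference is tied to how the stretches were bounded and is given as a description. The top peak of a run was an inner one in 66.7% to 74.1% of runs, while inner peaks made up 56.1% to 60.02% of run peaks. Both ends were lower in each list: at the 5' end the percentile lay between 62.5 (siFTO 1) and 74.5 (day 0), and at the 3' end between 64.8 (siFTO 1) and 73.8 (day -2). The highest fold of a run was typically 2.83 to 4.33 times its lowest (range of the list medians), so enrichment was uneven along a run although no base lacked a peak. Cebpa on day 5 was among the strongest, with a median fold at the 97.7th percentile of the list, and Plin1 on day 5 stood at the 95.9th. Cebpa encodes a transcription factor that drives fat cell differentiation and Plin1 coats lipid droplets.

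**Figure D5:**
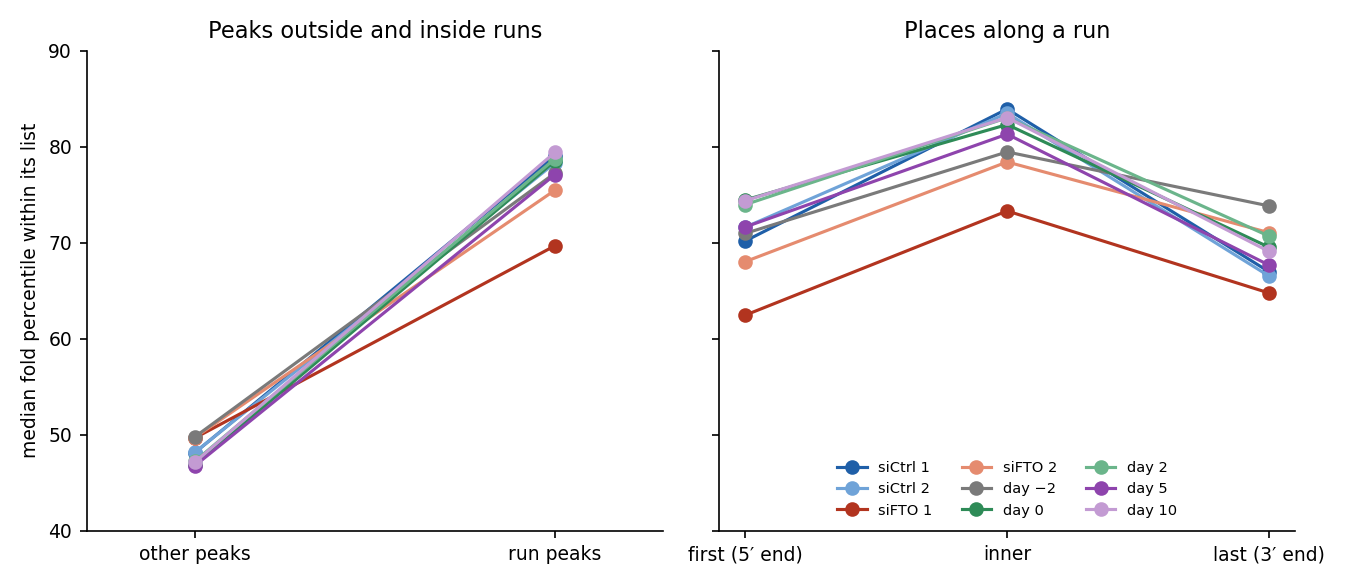
Median fold percentile within its own list (vertical axis) for peaks outside and inside runs (left) and for the first, inner and last peaks of runs (right), with 1 line for each of the 9 lists. Run peaks lie at 69.7 to 79.4 against 46.8 to 49.8 for other peaks, and inner peaks lie above both ends in every list.

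Run peaks lay more often in coding sequence than other peaks did. The 9 lists come from 1 cell line and are not independent. siCtrl 1 and siCtrl 2 shared 362 run regions, 88.7% and 84.0% of theirs. Days 0 and 10 shared 506, which is 84.1% and 72.6% of theirs. The sign permutations below count each list as a unit and take no account of this. The shares count peaks, so a long run weighs more than a short one. On day -2, for example, 1 Plec run gave 18 of the 160 run peaks. Shares per run were not tested. Coding sequence held 73.8% ± 5.15 of run peaks (mean and SD over 9 lists) and 61.6% ± 1.21 of the others, a difference of 12.3 points in 9 of 9 lists (exact sign permutation p = 0.00391, adjusted p = 0.00586). The 3' UTR held 4.62% ± 2.15 against 12.9% ± 1.54, 8.31 points less in 9 of 9 lists (exact sign permutation p = 0.00391, adjusted p = 0.00586). In the 5' UTR the shares were 7.47% ± 5.49 and 10.1% ± 3.82, lower in runs in 8 of 9 lists with day 0 the exception (exact sign permutation p = 0.0117, adjusted p = 0.0141). That difference turned to 1.31 points in favour of runs when the other peaks were taken only from genes that hold a run. Introns held 14.0% ± 5.49 and 15.2% ± 3.47, lower in 7 of 9 lists (exact sign permutation p = 0.398), a difference that is within the spread of the lists. Against other peaks of genes that hold a run, the intron difference was -16.5 points (adjusted p = 0.00469, exact sign permutation), and the coding difference was 20.5. Without day -2, where 27.5% of run peaks were labelled intronic, the intron difference was -2.17 points (adjusted p = 0.0188, exact sign permutation). The intron labels are those of the lists and depend on the gene a peak was assigned to. On day -2, 14 and 8 intronic run peaks came from the Gm20388 and 6430550D23Rik regions of the longest 10. Both regions lie over other RefSeq genes, and the part of those genes was not checked. The intron shares may thus partly reflect annotation.

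The 5' UTR share of runs itself ran with the list. It was 9.12% and 7.82% in siCtrl, 0.372% and 0.664% in siFTO, 0.625% on day -2 and 10.6% to 14.2% on days 0 to 10. The siFTO and day -2 shares rest on very few 5' UTR peaks. Those lists held only 537, 301 and 160 run peaks in siFTO 1, siFTO 2 and day -2. Other peaks of the same lists had 12.0% and 11.4%, 4.39% and 5.05%, 5.93%, and 12.1% to 14.0%, so siFTO and day -2 had the lowest shares outside runs too. Of the merged regions, 510 (45.5%) had coding peaks only, 167 joined the 5' UTR and coding sequence, 132 joined coding sequence and the 3' UTR, 90 were intronic only and 11 ran from the 5' UTR through the coding sequence into the 3' UTR. A 5' UTR peak was part of 285 (25.4%) of all 1122 run regions. It was part of 83 (28.3%) of the 293 regions with runs in both siCtrl lists and neither siFTO list, of 3 (6.98%) of the 43 with runs in all 4 and of none of the 10 in the reverse group. Of the 1069 regions that matched a RefSeq gene of the same name, 33.2% lay within 1000 bases of its 5' end, against 14.3% of regions of single peaks. The share within 1000 bases of the 3' end was 14.5% against 10.8%. The distance was taken from the nearer edge of a region, which favours long regions.

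In 14 of the 18 gene lists a larger share of the genes with a peak held a run than the 7.8% of all genes, and in the cell cycle, ribosomal, macrophage and endothelial lists a smaller share did. The macrophage and endothelial lists had only 2 genes with a peak each. The cell cycle and ribosomal lists had 1 gene with a run each. Some genes, such as Klf2 and Hes1, stand in more than 1 list, so the lists are not separate. Whether any share differs from that of all genes was not tested. These shares use the values that chose the regions and describe them only. Of 23 adipogenic transcription factors with a peak, 5 (21.7%) held a run: Cebpa, Cebpb, Cebpd, Klf9 and Klf4. The C/EBP factors act in sequence in fat cell differentiation. Cebpa (ENSMUSG00000034957, chr7:35119301-35120775, plus strand) held 8 run peaks over 1475 bases on each of days 0, 2, 5 and 10 and none on day -2, where peaks covered 100 bases. It held 0 and 4 run peaks in siCtrl and none in siFTO, where 200 and 300 bases were covered. Cebpb held 6 run peaks on each of days 0 to 10, 5 in each siCtrl list and none in siFTO or on day -2. Cebpd held 0, 5, 6, 6 and 6 over the stages and 5, 0, 0 and 0 in siCtrl 1, siCtrl 2, siFTO 1 and siFTO 2. Klf9, a Krüppel-like factor, held 5 run peaks on days 2, 5 and 10 and in no other list.

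Of 18 inhibitors of adipogenesis with a peak, 8 (44.4%) held a run. Klf2, a Krüppel-like repressor of Pparg, held 6, 5, 4 and 6 run peaks on days 0, 2, 5 and 10 and none in the siRNA lists, and no peak touched it in siFTO. Klf3 held 4 on each of these days and 4 in siCtrl 1. Hes1, the effector of Notch signalling, held 4 on each of days 0 to 10 with no peak at all on day -2. Dlk1, Zfp521, Foxo1 and Runx2 also held a run.

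AP-1, immediate early and stress genes had the highest share of the lists, with 15 of 28 (53.6%). The number of these genes with a run was 10, 13, 13 and 12 on days 0, 2, 5 and 10, 5 and 3 in siCtrl, and 0 in siFTO or on day -2, although 24 to 28 of them had a peak in each list. Egr1, an early response factor, held 8, 8, 10 and 10 run peaks on days 0, 2, 5 and 10 and none elsewhere. Jun, the core AP-1 subunit (ENSMUSG00000052684, chr4:95050206-95052200, minus strand), held 10 on each of these days and 4 in each siCtrl list. On day 10 its run was unbroken over 1979 bases, and on days 0, 2 and 5 it came in 2 pieces of 5 peaks. Ier5l held 8 on each of these days and 4 in each siCtrl list, and Ier5 held 7, 7, 5 and 7 with 6 and 5 in siCtrl. The peak lists give no RNA level, so whether these runs move with the amount of the transcript was not tested.

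Of 32 Notch, Wnt and TGF-beta pathway genes, 11 (34.4%) held a run, led by the Wnt receptors Fzd1, Fzd7 and Fzd2. Fzd1 held 10 and 10 run peaks in siCtrl, none in siFTO or on day -2, and 10, 8, 9 and 10 on the later days. Of 35 chromatin modifiers 12 (34.3%) held one, among them the cytosine dioxygenase Tet3, with 6 and 6 in siCtrl and 6, 6, 6 and 5 on days 0 to 10, the histone methyltransferases Kmt2b and Setd1b, and Arid1b, a subunit of the BAF remodelling complex. Of 28 collagens and matrix genes 7 (25%) held one. Loxl1, a cross-linking enzyme of elastin, held 6 and 6 in siCtrl and 7 on each of days 0 to 10. Tnc, the matrix protein tenascin C, held a run in siFTO 1 too, with 6 run peaks. Ltbp1 and Lox held runs on days 0 to 10 only, and no peak touched either region in siFTO or on day -2.

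Of 55 homeobox, forkhead, Sox and T-box genes 18 (32.7%) held a run. Sox12, a developmental transcription factor, held 7 on each of days 0 to 10 and 4 in each of the 4 siRNA lists. Sox4 held 7 and 7 in siCtrl and 9, 6, 6 and 9 on days 0 to 10. Of 13 Klf genes 5 did (38.5%) and of 27 protocadherin genes 5 (18.5%), with Pcdh7 at 6 and 6 in siCtrl and 8, 7, 7 and 9 on days 0 to 10. Among 355 Zfp and Zbtb zinc finger genes 50 did (14.1%), and Zfp503 held 8 and 8 in siCtrl and 10 on each of days 0 to 10.

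Among 19 genes that write, erase or read m6A and have a peak, 2 (10.5%) held a run. Alkbh5, the second m6A demethylase, held 6, 5, 5 and 5 on days 0 to 10 in a region labelled intronic, where peaks covered 1000 bases in each siCtrl list and 400 and 250 in siFTO. Zc3h13, a part of the methyltransferase complex, held 4 in siCtrl 1, siCtrl 2 and siFTO 1, and peaks covered at least 550 of its 625 bases in every list. Of 30 cell cycle and DNA replication genes, 1 (3.33%) held a run, which was Mki67, the proliferation marker, in siFTO 1. Of 28 cytosolic ribosomal protein genes 1 (3.57%) did, Rpl10a on day 2.

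Of 19 lipid genes of mature adipocytes with a peak, 3 (15.8%) held a run. Plin4, a lipid droplet protein, held 5, 5 and 4 in siCtrl 1, siCtrl 2 and siFTO 1 and 4, 4, 5 and 5 on days 0 to 10. Pnpla2, the lipase that starts the breakdown of stored fat, held 4 on days 2 and 5. Plin1 held 4 on day 5, and neither Pnpla2 nor Plin1 had a peak in its region before day 2 or in the siRNA lists. Of the 8 adipocyte markers, 3 had a peak on days -2 and 0 and 7 on days 2, 5 and 10. Of the 10 preadipocyte markers, 8 had a peak at each stage. Of the 8 macrophage markers 0 to 2 had a peak in a list, and of the 8 endothelial markers 0 to 1, with no run. A peak needs its transcript, and in these bulk samples fewer cells of a type and less RNA per cell cannot be told apart.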

How the data were processed

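The libraries were built with the TruSeq RNA Sample Prep Kit v2 and read from one end, per the labels' protocols. The submitters' processing notes name TopHat2 2.0.9, bedtools and the mm10 build. The authors deposited 1 peak list per library pair with a fold (ratio, headed enrichment) for each peak, per the file headers. Nothing was found on its formula, the peak caller or the depth (not given in the sources used here), so the fold was used only as a rank within its list. Starts were counted from 0 in the lists and are printed from 1. Lines with the chromosome "encoded" were left out. They numbered 2 in each siCtrl list, 12 and 13 in siFTO, 21 on day -2 and 0 on each later day. Of 12634 gene identifiers, 12492 had a symbol.

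Peaks were chained and merged with pandas 2.3.3. Each of the 9 lists was a unit in two-sided exact sign permutations (6 tests), although the lists share many run regions and are not independent. siFTO was set against siCtrl by exact permutation (3 tests). P-values were Benjamini-Hochberg adjusted within each family. All 2304 runs of simulated lists were found. Regions were named by fixed rules (the 10 longest, the 10 in most lists, the 10 genes with most regions, 5 per siRNA or stage pattern, up to 4 genes per gene list), leaving out names such as Gm20388 except among the longest. Junb and the other genes of the sequence sites were named by the number of lists, and the remaining Gm20388 regions after their values were seen. The members and the 18 gene lists were chosen with earlier results of these data known. Alternatives were another minimum of peaks, a gap, a fold filter, equal list lengths, other reference peaks and leaving out each siRNA list. A gene that the naming rule picked is not reported here.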

Additional observations from a re-analysis of the deposited data

How the results depend on the processing

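The number of regions follows the minimum run length: 1122 regions became 3139 with 3 peaks or more and 257 with 6 or more. Regions with a run in each siCtrl list but no siFTO list went from 293 to 830 and 53, and to 189 with only peaks at or above the median fold of their list. The reverse group went from 10 to 28 and 1, and to 20 when gaps of up to 25 bases were allowed. The 5' UTR difference of -2.61 points lost its call with 3 peaks or more (-0.119) and turned to 1.31 against other peaks of genes that hold a run. The intron difference of -1.24 points turned to 3.15 with 6 peaks or more. It passed the threshold with 3 peaks or more (-3.82), with peaks at or above the median fold (-5.34), with lists of equal length (-3.96), against other peaks of the same genes (-16.5) and without day -2 (-2.17). The causes were not tested beyond these settings. The coding and 3' UTR differences kept their direction and their call under every setting run, and the run fold and inner fold differences kept their direction. The siFTO differences in stage-defined regions kept their direction, and with 2 lists a group none can pass the threshold. Leaving out each siRNA list in turn moved the stage-defined difference between -290.5 and -266.5 regions and the siFTO fold percentile difference between -8.99 and -3.21 points. Results without day -2, with wider reference peaks, with adjoining peaks of any gene and for the siRNA presence groups were chosen after seeing the data. No paired analysis was possible because the labels number only the second replicate of each siRNA group. Read depth is unknown, so whether it sets run numbers was not tested.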
